A study of Mus musculus with 60 samples.

Results

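A set of 8 genes of glucose metabolism were followed across hepatocytes, IL6-induced cultures and regenerating liver of the mouse. They were taken as a fixed list of isoenzyme genes, namely Pck1, Pck2, G6pc and Fbp1 of gluconeogenesis and Hk1, Hk2, Pklr and Pkm of glycolysis. All 8 were found among the 19355 symbols of the table of hepatocytes and cultures and among the 17473 symbols of the liver table, and 2 of them (Pck2 and Pklr) were found among the 480 symbols of a smaller table of cultures at day 7. The 33 samples of the first table fall into 11 groups of 3. Freshly isolated hepatocytes of adult C57BL/6 wild-type mice were compared with IL6-iHPCs, the proliferating progenitor-like cells that such hepatocytes form in a medium with IL6, EGF and HGF, at day 3 (D3) and day 14 (D14) of the first culture (P0). Also compared were 4 passaged lines of IL6-iHPCs, from mouse-1 at passage 10 (P10), mouse-1 at P35, mouse-2 at P10 and clone-1 at P20. The last cells compared were the IL6-iMHs labelled as obtained from each of these 4 lines in a maturation medium with oncostatin M. By the study's methods both media also held dexamethasone and the supplement ITS (insulin, transferrin and selenium). Dexamethasone was at a higher concentration in the maturation medium, for which no IL6, EGF or HGF is listed. The 18 liver samples, also C57BL/6 wild type, were normal liver and liver after partial hepatectomy (PHX), taken after 6 h or 24 h or on days 3, 7 or 14, with 3 samples per group. The labels do not say whether the 3 livers of a group came from separate animals, so p-values measure the spread between these samples. The third table holds primary hepatocytes, IL6-iHPCs-D7 and HCM-Hepa-D7, 3 of each. HCM-Hepa-D7 are hepatocytes held for the same time in the hepatocyte medium HCM, which has EGF and HGF but no IL6.

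Gluconeogenesis is the route by which liver makes glucose from lactate, glycerol and amino acids, and it runs past the irreversible steps of glycolysis with enzymes of its own. Phosphoenolpyruvate carboxykinase, fructose-1,6-bisphosphatase and glucose-6-phosphatase catalyse these bypass steps. Several steps of glycolysis have isoenzymes: adult hepatocytes are known for the liver form of pyruvate kinase (Pklr), whereas hexokinases of low Km and the pyruvate kinase encoded by Pkm are known from fetal liver, most other tissues and proliferating cells.

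Sequencing depth, recovered from the deposited values, was 49.3 to 88.9 M reads on genes in the culture samples and 46.9 to 74.0 M in liver. The samples within a culture group are technical repeats according to the study. The p-values therefore cover technical error and no variation between mice. Clone-1 was grown from a single hepatocyte, and mouse-1 contributed 2 of the 4 lines, at P10 and at P35. The labels give every sample as wild type, whereas the study describes its single-cell clones as grown from tdTomato-marked hepatocytes of mice with Albumin-Cre and R26R-tdTomato. For 4 Y-linked genes the reads numbered 994 to 1550 in hepatocytes, 13066 to 18444 at D3, 9185 to 10803 at D14 and 6575 to 9095 in IL6-iHPCs-clone-1. They numbered 0 in the samples labelled IL6-iMHs-clone-1, 0 to 2 in the other passaged lines of IL6-iHPCs and 0 in the IL6-iMHs of those lines. Whether the 2 sets of samples labelled clone-1 hold cells of the same clone cannot be told from these data, so the maturation values of clone-1 below are differences between samples with these labels and may not be the change of 1 line. Where stated, results over the 4 lines are therefore also given without clone-1. All other values over the 4 lines, among them the counts of pathway lists, include it. Comparisons of the passaged lines from mice and of all IL6-iMHs with hepatocytes also set cells nearly without Y-linked reads against cells with them. Hepatocytes in turn held fewer such reads than the cells of D3 and D14, and fewer than normal liver (7484 to 10652). The comparisons of D3 and D14 with hepatocytes thus also differ in these reads. Leaving out clone-1 changes neither difference, and the part of these differences in the values was not tested. The hepatocyte label was borne out by its markers: 7 genes such as Alb and Ttr summed to 73701 to 79547 FPKM in hepatocytes, 602 to 717 at D3 and 52129 to 56757 in normal liver.

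Levels are given in FPKM, a fragment count scaled to transcript length and to the total of mapped fragments, which can be compared between genes. Changes are differences of log2(FPKM + 1), abbreviated log2FC, tested with limma over all genes of a table that reached 1 FPKM in at least 3 samples (12328 in the culture table, 11114 in the liver table), among which were all 8 genes. A gene was called changed when its Benjamini-Hochberg adjusted p was under 0.05 and it differed 2-fold or more. This scale understates the change of genes below 1 FPKM. All 5 comparisons of the culture table that involve hepatocytes or passaged cells share samples, so their values stand side by side and are not independent of each other. The median of all genes tested lay at 1.14 (D3), 1.00 (D14), 0.93 (passaged IL6-iHPCs) and 0.46 (IL6-iMHs) on the log2 scale against hepatocytes and at -0.40 for IL6-iMHs against passaged IL6-iHPCs, and a change relative to this median is given beside a call that falls below 2-fold on it.

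The genes lie on 8 chromosomes in the mm10 build that the authors used. Pck1 spans chr2:173153048-173159273, G6pc chr11:101367561-101377903, Pck2 chr14:55540266-55551242 and Pkm chr9:59656368-59679375 on the plus strand. Fbp1 spans chr13:62864753-62888282, Hk1 chr10:62268855-62379908 and Hk2 chr6:82725025-82774454 on the minus strand, and Pklr spans chr3:89136142-89146784 on the plus strand (GENCODE vM21, GRCm38). Pck2, Hk1 and Hk2 each overlap an antisense gene (Gm10876, Hk1os and Gm17034), Pklr overlaps Hcn3 on the opposite strand and Pkm overlaps Gm49759, and whether the counting used strand is not given in the sources used here. Values per gene also cannot separate the M1 and M2 transcripts of Pkm or the red cell and liver transcripts of Pklr.

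Promoter sequences of RefSeq (GRCm38.p6) were found for 8 of 8 genes, with 11 start sites in all. The stretches just before the start of 4 genes are shown because Pck1 and Pck2 encode the cytosolic and mitochondrial forms of 1 enzyme and took opposite courses in culture, and because Fbp1 fell and Hk2 rose with them. Capitals mark the CRE core (ACGTCA), the hypoxia response core (ACGTG), the CCAAT box (CCAAT) and the GC box (GGGCGG), each on either strand; in Hk2 the CRE core and a hypoxia response core overlap in 1 run of capitals. The Pck1 stretch covers chr2:173152823-173153047 and ends where the GENCODE gene begins, the others are chr14:55540016-55540265 for Pck2, chr13:62888283-62888532 for Fbp1 and chr6:82774455-82774704 for Hk2, all read 5′ to 3′ on the strand of the gene.
Pck1: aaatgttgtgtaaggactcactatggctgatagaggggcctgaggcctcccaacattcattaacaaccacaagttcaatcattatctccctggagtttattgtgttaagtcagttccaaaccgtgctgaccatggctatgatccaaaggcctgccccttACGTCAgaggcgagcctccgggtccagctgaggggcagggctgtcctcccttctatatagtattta
Pck2: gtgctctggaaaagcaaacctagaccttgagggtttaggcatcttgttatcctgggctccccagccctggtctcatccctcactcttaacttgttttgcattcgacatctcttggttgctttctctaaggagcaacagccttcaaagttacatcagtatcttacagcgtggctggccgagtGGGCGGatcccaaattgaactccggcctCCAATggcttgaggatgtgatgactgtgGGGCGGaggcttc
Fbp1: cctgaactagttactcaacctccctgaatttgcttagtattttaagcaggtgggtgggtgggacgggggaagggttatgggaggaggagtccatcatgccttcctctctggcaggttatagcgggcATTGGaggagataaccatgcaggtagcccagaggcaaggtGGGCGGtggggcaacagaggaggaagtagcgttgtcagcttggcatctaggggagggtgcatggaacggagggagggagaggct
Hk2: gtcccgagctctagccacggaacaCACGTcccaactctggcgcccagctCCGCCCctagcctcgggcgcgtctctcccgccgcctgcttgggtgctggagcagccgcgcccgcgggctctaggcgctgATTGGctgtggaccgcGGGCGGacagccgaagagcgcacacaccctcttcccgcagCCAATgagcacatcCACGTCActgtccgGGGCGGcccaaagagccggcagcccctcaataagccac
Distances are counted from the RefSeq start, which for Pck1 lies 25 bases past the end of the stretch shown and for the other 3 right after it. The CRE core, the letters bound by CREB-type factors, stood 91 bases before the start of Pck1 and 51 bases before that of Hk2, and 6.47% of 32851 promoters of this length hold it. A TATA box (TATAAA, in 12.4% of promoters) stood 29 bases before the start of G6pc and 31 bases before the second start of Pklr. GC boxes, in 32.7% of promoters, were found before Pck1 (16 bases before the start, past the stretch shown), Pck2, Fbp1, Hk2 and the first start of Pkm. The E-box (CACGTG, in 6.02%) was found in none of the 11. In base composition Hk2 (69.6% G+C, CpG observed over expected 0.85) and both starts of Pkm (66.4% and 61.6% G+C, 0.76 and 1.13) lay above the upper quartile of all promoters (61.2% and 0.72), whereas G6pc (43.2% and 0.17) lay below the lower quartile of G+C (45.2%) and near that of CpG (0.17). The first start of Hk1 (49.6% and 0.065) lay below the lower quartile of CpG. Its second start (62.8% and 0.57) lay above the upper quartile of G+C but not of CpG. The motif matches and base compositions are a description of letters and not of binding.

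In the first days of culture the gluconeogenic genes of adult liver fell by orders of magnitude, while Pck2, both hexokinases and Pkm rose. Against hepatocytes 8 of the 8 genes were called at D3, 4 higher and 4 lower, where 66.0% of all genes tested were called. At D14 it was 7 of 8, 4 higher and 3 lower, against 62.9% of all genes, and in passaged IL6-iHPCs 8 of 8, 5 higher and 3 lower, against 59.4%. Calls were common among all genes in these comparisons, so the sizes and directions say more than the counts. Among all genes tested, calls at D3 were higher for 53.9% and lower for 12.1%, those at D14 for 50.0% and 12.9%, and those of passaged cells for 48.1% and 11.3%.

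Pck1, which encodes the cytosolic phosphoenolpyruvate carboxykinase, stood at 644, 665 and 578 FPKM in hepatocytes and at 0.67, 0.56 and 0.65 FPKM at D3. It stood at 0.56, 0.27 and 0.25 FPKM at D14, and its lowest, median and highest values in the 12 samples of passaged IL6-iHPCs were 0, 0.017 and 0.14 FPKM. No culture sample came near the hepatocytes, and the mean at D3 was 1007-fold lower. The log2FC was -8.60 ± 0.09 (SE, adjusted p = 2.04e-34) at D3, -8.86 ± 0.09 at D14 and -9.25 ± 0.07 in passaged cells (-9.28 without clone-1). In mouse-1 (P35) no read was found on Pck1 in any of 3 samples, which at a floor of 3 reads per library puts hepatocytes at least 35027-fold higher. This bound covers counting error only.

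G6pc, which encodes the catalytic subunit of glucose-6-phosphatase that releases free glucose, fell in the same comparisons but returned in some lines. It stood at 162, 175 and 150 FPKM in hepatocytes, at 0.062, 0.14 and 0.15 FPKM at D3 and at 3.95, 4.2 and 4.37 FPKM at D14. Passaged IL6-iHPCs spread from 0.015 to 54.9 FPKM with a median of 5.51 FPKM. The log2FC against hepatocytes was -7.19 ± 0.06 at D3, -4.98 ± 0.06 at D14 and -4.95 ± 0.05 in passaged cells (-4.17 without clone-1). A direct test of D14 against D3, in which 10.2% of all genes were called, gave a rise of 2.21 ± 0.06 (adjusted p = 1.00e-22), and the 2 days did not overlap. The passaged lines lay far apart from each other: mouse-1 (P10) held 54.9, 49.2 and 49.1 FPKM and mouse-2 (P10) 12.3, 10.8 and 11.2 FPKM. Mouse-1 (P35) held 0.16, 0.13 and 0.15 FPKM and clone-1 0.035, 0.049 and 0.015 FPKM, so that cells of the same mouse did not overlap between P10 and P35.

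Fbp1, the fructose-1,6-bisphosphatase of liver, was the most abundant of the 8 genes in hepatocytes at 915, 870 and 926 FPKM. It fell to 13.9, 16.6 and 13.7 FPKM at D3 and to 3.09, 3.68 and 3.01 FPKM at D14, and passaged cells held 0 to 12 FPKM with a median of 1.4 FPKM. The log2FC was -5.85 ± 0.13 at D3, -7.73 ± 0.13 at D14 and -8.41 ± 0.11 in passaged cells (-7.98 without clone-1), and D14 was lower than D3 by a log2FC of -1.88 ± 0.13 (adjusted p = 4.37e-13). Fbp1 and G6pc thus moved in opposite directions between D3 and D14. In mouse-1 (P35) only 2 reads were counted over 3 samples, a 127050-fold lower level than in hepatocytes with a 95% counting interval of 35172 to 1049100.

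Pck2, the mitochondrial phosphoenolpyruvate carboxykinase, took the opposite course to Pck1. Hepatocytes held 0.45, 0.35 and 0.46 FPKM, D3 8.51, 10.2 and 7.61 FPKM and D14 14.9, 14.8 and 14.2 FPKM. Passaged IL6-iHPCs ranged from 29.2 to 71.0 FPKM with a median of 37.5 FPKM, and none of these groups overlapped the hepatocytes. The log2FC was 2.78 ± 0.08 (adjusted p = 1.05e-23) at D3, 3.46 ± 0.08 at D14 and 4.91 ± 0.06 in passaged cells (4.67 without clone-1), and relative to the median of all genes it was 1.64, 2.46 and 3.97.

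Both low-Km hexokinases rose from very low levels in hepatocytes. Hk1, the broadly expressed hexokinase, stood at 0.25, 0.26 and 0.25 FPKM in hepatocytes, at 8.23, 7.54 and 8.43 FPKM at D3 and at 18.5, 16.5 and 19.3 FPKM at D14. Hk2, the hexokinase known from muscle, fat and tumours, stood at 0.045, 0.039 and 0.041 FPKM, then 2.81, 3.27 and 2.93 FPKM and 4.51, 4.40 and 4.24 FPKM. For neither gene did any culture group overlap the hepatocytes. The log2FC of Hk1 was 2.85 ± 0.09, 3.93 ± 0.09 and 4.15 ± 0.07 at D3, at D14 and in passaged cells, and that of Hk2 was 1.94 ± 0.10, 2.37 ± 0.10 and 3.71 ± 0.08. Relative to the median of all genes the rise of Hk2 at D3 was 0.80 on the scale of log2(FPKM + 1), below 2-fold. That scale understates a rise from far below 1 FPKM: the mean of Hk2 went from 0.042 to 3.00 FPKM. Without clone-1 the passaged cells gave 3.79 for Hk1 and 3.84 for Hk2.

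The pyruvate kinase genes differed from each other. Pkm, which encodes the muscle-type M1 and M2 enzymes, stood at 3.09, 3.00 and 2.69 FPKM in hepatocytes and at 293, 271 and 284 FPKM at D3. It stood at 312, 273 and 292 FPKM at D14 and at 541 to 1964 FPKM in passaged IL6-iHPCs, with a median of 1050 FPKM. On the scale of log2(FPKM + 1) this was the largest rise among the 8 genes. Its log2FC was 6.18 ± 0.06 (adjusted p = 1.79e-34) at D3, 6.22 ± 0.06 at D14 and 8.03 ± 0.05 in passaged cells (7.86 without clone-1). By the ratio of mean FPKM, Hk2 rose more than Pkm at D14 (0.042 to 4.38 against 2.93 to 293 FPKM). The same held in both P10 lines. Pklr, whose liver transcript encodes L-type pyruvate kinase, was not lost: it stood at 59.4, 61.2 and 56.7 FPKM in hepatocytes, at 26.8, 30.6 and 27.0 FPKM at D3 and at 62.1, 62.7 and 59.8 FPKM at D14. It fell at D3 (-1.05 ± 0.07, adjusted p = 3.37e-15), while at D14 its range overlapped that of hepatocytes and the difference was 0.06 with a 95% interval of -0.08 to 0.19 (adjusted p = 0.40). Between D3 and D14 Pklr rose by 1.10 ± 0.07. In passaged cells, at 59.7 to 363 FPKM, Pklr was called higher (1.31 ± 0.05, without clone-1 1.46), but relative to the median of all genes this was 0.38 and the ranges overlapped.

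**Figure D1:**
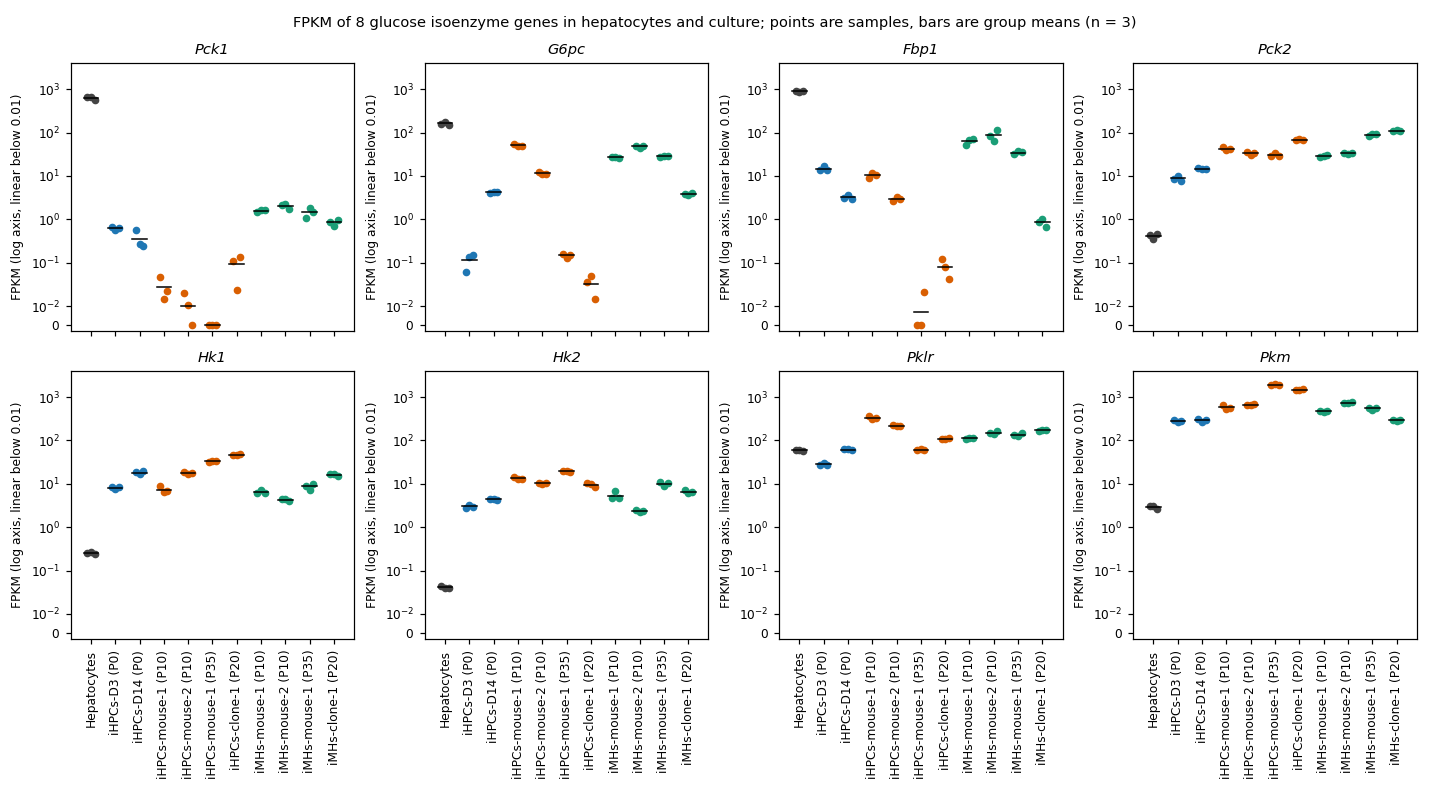
FPKM of the 8 genes (log axis, linear below 0.01) in the 11 groups of hepatocytes, IL6-iHPCs and IL6-iMHs, with 1 point per sample and a bar at the mean of 3. Pck1, G6pc and Fbp1 were highest in hepatocytes, whereas Pck2, Hk1, Hk2 and Pkm were lowest there and Pklr stayed between 26.8 and 363 FPKM throughout.

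Ordered by mean, hepatocytes came first of the 11 groups for Pck1, G6pc and Fbp1 and last for Pck2, Hk1, Hk2 and Pkm, in each case without overlap with the next group. Among the cultures many neighbours could not be separated. Of the 10 neighbouring pairs, ranges overlapped in 5 for Pck1, 4 each for Hk1 and Pklr, 3 each for Pck2, G6pc, Hk2 and Pkm and 2 for Fbp1. Pck1 in the 4 passaged lines of IL6-iHPCs rested on few reads. Clone-1 (48 reads over 3 samples) lay above mouse-2 (P10) (5 reads) and mouse-1 (P35) (0 reads), while mouse-1 (P10) (11 reads) overlapped clone-1 and mouse-2 (P10) but not mouse-1 (P35). Pck2 was highest in IL6-iMHs-clone-1 (111, 115 and 108 FPKM), followed by IL6-iMHs-mouse-1 (P35) and IL6-iHPCs-clone-1, and Pkm was highest in IL6-iHPCs-mouse-1 (P35) at 1924, 1964 and 1928 FPKM.

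The share of each isoenzyme in the sum of its forms does not depend on the scaling of a sample. Pck2 made up 0.067% ± 0.014 (SD, n = 3) of Pck1 and Pck2 in hepatocytes, 93.2% ± 1.4 at D3 and 97.6% ± 1.1 at D14. In passaged IL6-iHPCs the group means were at least 99.9%, and in IL6-iMHs the share was still 94.8% ± 0.21 (mouse-1, P10), 94.2% ± 0.93 (mouse-2, P10), 98.4% ± 0.32 (mouse-1, P35) and 99.2% ± 0.15 (clone-1). The phosphoenolpyruvate carboxykinase message of every culture group was thus nearly all of the mitochondrial form.

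Pkm made up 4.72% ± 0.21 of Pklr and Pkm in hepatocytes, 90.9% ± 0.94 at D3 and 82.6% ± 1.1 at D14. In passaged IL6-iHPCs it ranged by line from 63.7% ± 0.31 in mouse-1 (P10) to 96.9% ± 0.08 in mouse-1 (P35), with 75.7% ± 0.83 in mouse-2 (P10) and 93.0% ± 0.19 in clone-1. The lines came closer to each other in IL6-iMHs, at 80.5% ± 0.91, 80.0% ± 1.0 and 83.4% ± 0.98 in the 3 lines from mice and 62.8% ± 0.96 in clone-1. The share rose at maturation in both P10 lines and dropped in the other two, without overlap.

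Hk2 made up 14.1% ± 0.99 of Hk1 and Hk2 in hepatocytes and 64.9% ± 2.4 in IL6-iHPCs-mouse-1 (P10), where Hk2 exceeded Hk1, but 16.9% ± 1.8 in clone-1.

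**Figure D2:**
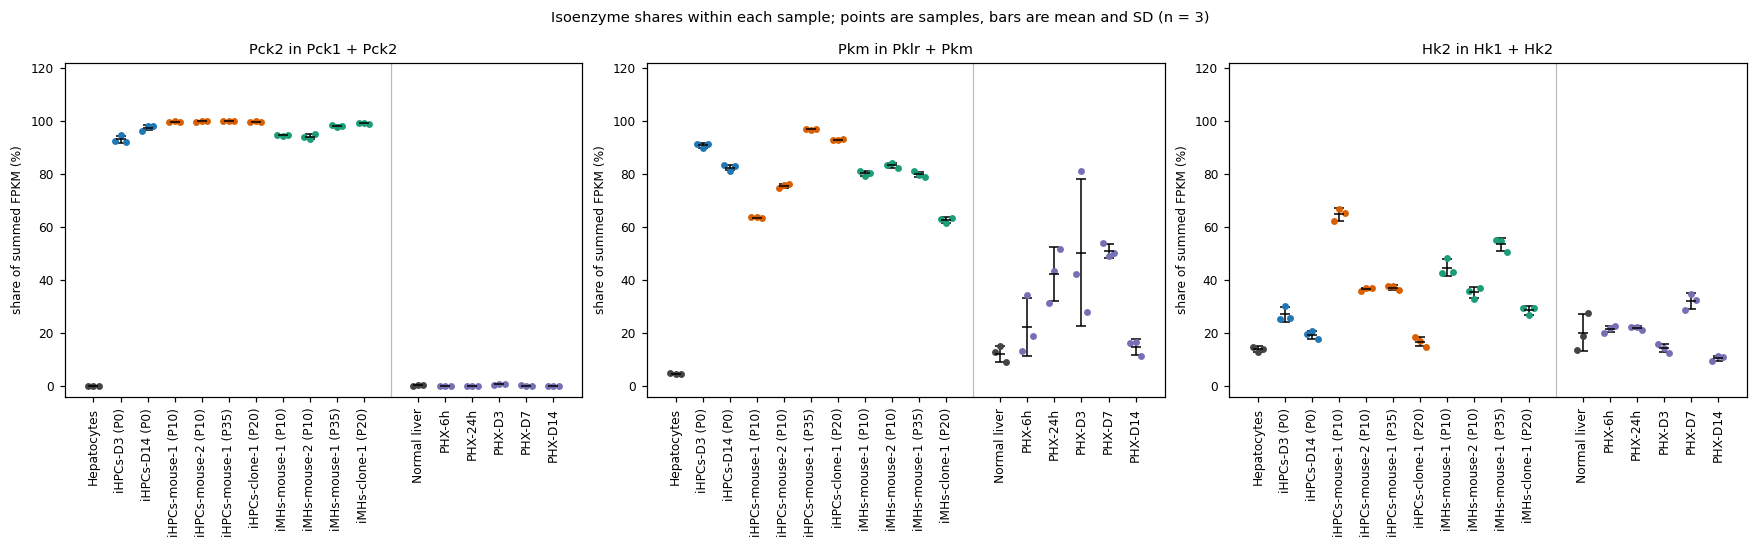
Share of summed FPKM (%) taken by 1 isoenzyme in each culture sample and liver, for Pck2, Pkm and Hk2, with points for samples and bars for mean and SD of 3. The mean Pck2 share was 0.067% in hepatocytes and at least 94.2% in every IL6-iMH group, and the mean Pkm share was 4.72% in hepatocytes and at least 62.8% in every IL6-iMH group.

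Maturation of passaged IL6-iHPCs into IL6-iMHs raised the gluconeogenic genes of adult liver and lowered the hexokinases, each only part of the way to hepatocytes. Of the 8 genes 6 were called, 3 higher and 3 lower, where 28.1% of all genes were called (6.68% higher and 21.4% lower). Without clone-1 it was 3 higher and 2 lower. Over the 4 lines Fbp1 rose by a log2FC of 3.21 ± 0.07, G6pc by 1.99 ± 0.03 and Pck1 by 1.24 ± 0.04, and without clone-1 by 4.02, 1.92 and 1.4. Hk1 fell by 1.3 ± 0.05 and Hk2 by 1.08 ± 0.05 (1.25 and 1.28 without clone-1), but with quantile normalization neither reached 2-fold. Pkm fell by 1.08 ± 0.03, and without clone-1 its difference of -0.67 missed the call. Relative to the median of all genes the 3 falls were below 2-fold, at -0.90 for Hk1, -0.67 for Hk2 and -0.68 for Pkm. Pck2 (0.41 ± 0.04) and Pklr (-0.07 ± 0.03) were not called.

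These means hid large differences between lines. An F test of the difference between lines was under the threshold for 8 of the 8 genes, as it was for 96.3% of all genes, so only the sizes and signs are described here. G6pc moved in opposite directions: it went from 54.9, 49.2 and 49.1 to 27.0, 27.4 and 25.8 FPKM in mouse-1 (P10), a 1.91-fold lower mean with a log2FC of -0.91 that missed the call (-1.02 and called with quantile normalization). It rose 4.2-fold in mouse-2 (P10), from 0.16, 0.13 and 0.15 to 27.8, 28.7 and 28.7 FPKM in mouse-1 (P35), and from 0.035, 0.049 and 0.015 to 3.80, 3.72 and 3.98 FPKM in clone-1. IL6-iMHs of the 3 lines from mice therefore lay within 25.8 to 50.1 FPKM although the cells they came from spanned 0.13 to 54.9 FPKM.

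Fbp1 rose in the lines from mice, 6.05-fold in mouse-1 (P10), 29.7-fold in mouse-2 (P10) and from 0, 0 and 0.021 to 31.3, 36.6 and 35.7 FPKM in mouse-1 (P35). In clone-1 it reached 0.86, 1.04 and 0.67 FPKM, with a log2FC of 0.78 ± 0.13 that missed the call on this scale though the mean was 10.5-fold higher. Pck1 stood at 0.71 to 2.31 FPKM in all 12 samples of IL6-iMHs, above each passaged sample, and its log2FC was 1.32, 1.59, 1.29 and 0.76 in mouse-1 (P10), mouse-2 (P10), mouse-1 (P35) and clone-1. The levels of Pck1 in IL6-iMHs were 306-fold to 737-fold below that of hepatocytes.

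Pklr and Pkm changed in different lines. Pklr fell from 363, 306 and 325 to 109, 115 and 116 FPKM in mouse-1 (P10), with a log2FC of -1.54 ± 0.07, and rose from 60.2, 64.0 and 59.7 to 131, 129 and 147 FPKM in mouse-1 (P35), with a log2FC of 1.13 ± 0.07. Pkm fell from 1924, 1964 and 1928 to 563, 510 and 560 FPKM in mouse-1 (P35) and from 1461, 1417 and 1521 to 291, 286 and 297 FPKM in clone-1. In both P10 lines Pkm was not called, at -0.32 and 0.15, the latter -0.77 with quantile normalization. Pck2 rose 2.89-fold in mouse-1 (P35) and overlapped between both states in mouse-2 (P10). Without overlap but not called, its mean was 1.48-fold lower after maturation in mouse-1 (P10) (-0.54 ± 0.08) and 1.62-fold higher in clone-1 (0.69 ± 0.08). Hk1 fell 4.09-fold, 3.72-fold and 2.89-fold in mouse-2 (P10), mouse-1 (P35) and clone-1 and overlapped between states in mouse-1 (P10). Hk2 fell in both P10 lines, by 1.20 and 1.74 on the log2 scale, and was not called in mouse-1 (P35) or clone-1. With quantile normalization the fall in mouse-1 (P10) was -0.98 and lost the call. Called genes numbered 2 higher and 2 lower in mouse-1 (P10), 3 and 2 in mouse-2 (P10), 1 and 2 in clone-1, with 5 and 2 for mouse-1 (P35), beside 25.0%, 39.9%, 23.6% and 45.3% of all genes called in either direction. In clone-1 the count of higher genes was 3 in place of 1 with a pseudocount of 0.1 or with voom, which added Pck1 and Fbp1, and 2 with quantile normalization, which added Pck2. Relative to the median of all genes in clone-1 (-0.38) these 3 genes and Pklr stood at 1.14, 1.15, 1.07 and 1.03, in the order Pck1, Fbp1, Pck2 and Pklr. Of all genes 9.59% were higher and 15.4% lower in mouse-1 (P10), 11.2% and 28.6% in mouse-2 (P10), 5.86% and 17.7% in clone-1, with 10.2% and 35.1% for mouse-1 (P35).

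**Figure D3:**
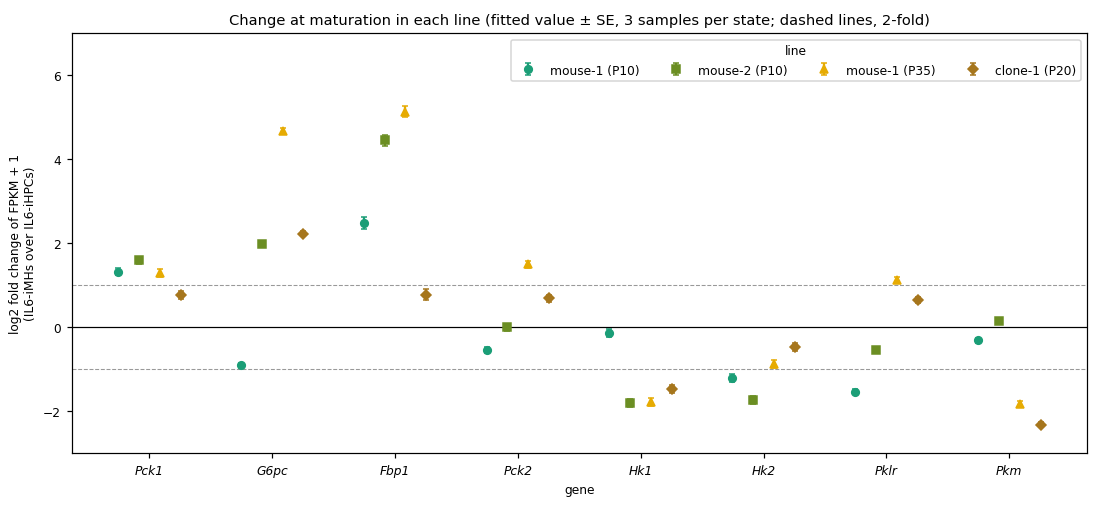
Change at maturation (log2FC of FPKM + 1, IL6-iMHs over IL6-iHPCs, fitted value with SE, 3 samples per state) of the 8 genes in each of 4 lines, with dashed lines at 2-fold. G6pc ran from -0.91 in mouse-1 (P10) to 4.68 in mouse-1 (P35), and Pkm fell in clone-1 and mouse-1 (P35) but was not called in the P10 lines.

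Compared with hepatocytes, IL6-iMHs kept the isoenzyme pattern of the culture. All 8 genes were called, 5 higher and 3 lower, where 32.6% of all genes were called (24.8% higher and 7.79% lower), and the same counts held without clone-1. Pck1 was lower by a log2FC of -8.01 ± 0.07, Fbp1 by -5.20 ± 0.11 and G6pc by -2.96 ± 0.05, and without clone-1 the values were -7.88, -3.96 and -2.25. Pkm was higher by 6.95 ± 0.05, Pck2 by 5.32 ± 0.06, Hk1 by 2.85 ± 0.07 and Hk2 by 2.64 ± 0.08. Pklr was higher by 1.24 ± 0.05 with no overlap (109 to 178 against 56.7 to 61.2 FPKM), or by 0.77 relative to the median of all genes.

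Another isoenzyme and the transporter genes gave a comparison for these values. Aldoa, the aldolase of muscle and many other tissues, stayed higher in IL6-iMHs (3.22 ± 0.05), as did Slc2a1, the ubiquitous glucose transporter GLUT1 (2.24 ± 0.06). Slc2a2, the hepatocyte transporter GLUT2, fell by 4.51 at D3, rose by 3.92 ± 0.04 at maturation and stood 1.25 ± 0.06 above hepatocytes in IL6-iMHs, or 0.79 relative to the median of all genes. In IL6-iMHs-clone-1 Slc2a2 (59.7 to 74.5 FPKM) overlapped hepatocytes (58.8 to 64.4 FPKM), whereas the IL6-iMHs without clone-1 (159 to 253 FPKM) did not. In the IL6-iMHs of the P10 lines Slc2a2 thus had means above that of hepatocytes, where Pck1 reached 1.49 to 2.31 FPKM.

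Of 12 further genes of gluconeogenesis, 1 was called higher and 8 lower at D3, beside 53.9% and 12.1% of all genes, with a median log2FC of -2.56 against 1.14 for all genes. The largest fall was that of Sds (-6.57), the serine dehydratase, and the gene called higher was G6pc3 (1.49), the ubiquitous glucose-6-phosphatase, which stood at 0.35 relative to the median of all genes and turned to -0.055 with quantile normalization. At maturation 6 of the 12 rose and 0 fell, beside 6.68% and 21.4% of all genes, led by Gpt (3.17), an alanine aminotransferase. Against hepatocytes IL6-iMHs had 2 higher and 3 lower, beside 24.8% and 7.79%. All 6 tested genes for other forms of glycolytic enzymes exceeded hepatocytes among passaged IL6-iHPCs and among IL6-iMHs. Of all genes 48.1% and 24.8% were higher there. Pfkp, the platelet form of phosphofructokinase, led at 4.97 and 5.51. Relative to the median of all genes Pfkm (0.24), Aldoc (0.42) and Eno3 (0.51) were below 2-fold in passaged cells, and Pfkm (0.67) and Eno3 (0.76) in IL6-iMHs. At D3 and D14 Aldoc was called lower (-1.92 and -1.43), and Pfkm and Eno3 were not called. Aldoa, Hkdc1 and Pfkp were called higher on both days, Hkdc1 at D3 by 0.009 relative to the median. Of 8 genes of steps shared by all tissues 6 were higher in passaged cells and 7 in IL6-iMHs, beside the same 48.1% and 24.8%, led by Gapdh (4.62 ± 0.65 and 4.18 ± 0.65). Gapdh has near-identical pseudogenes, and how the counting treated them is not given in the sources used here. Of 4 transport genes tested, passaged cells had 2 higher and 1 lower, beside 48.1% and 11.3% of all genes.

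Markers of other liver cells varied between the cultures. The macrophage list summed to 11.6 to 13.7 FPKM in hepatocytes and 20.9 to 26.5 FPKM at D3, where Cd68 rose by 3.91 while Clec4f, Marco and Timd4 were at 0, and to 3.61 to 4.38 FPKM at D14. Of its 8 markers 4 to 6 were at 0 in each group of IL6-iMHs, among them Clec4f, Vsig4 and Timd4, and the list summed to 0.96 to 9.65 FPKM in passaged IL6-iHPCs and to 1.39 to 40.7 FPKM in IL6-iMHs. The stellate cell list, of which 1 of 8 genes (Dcn) passed the filter, summed to 0.78 to 1.21 FPKM in hepatocytes, 0.69 to 1.29 FPKM at D3 and 25.2 to 26.6 FPKM at D14, where Dcn rose by 4.06. It summed to 10.3 to 19.4 FPKM in passaged mouse-1 (P10), 3.47 to 5.48 FPKM in the other 3 lines and 0.099 to 0.61 FPKM in IL6-iMHs, where Dcn fell by 2.48 at maturation. The lymphocyte or granulocyte list summed to 28.0 to 36.6 FPKM in passaged clone-1 and 86.5 to 92.4 FPKM in passaged mouse-1 (P35), the lines with the highest Pkm and Hk1. The endothelial list summed to at most 0.18 FPKM among the passaged lines, and after their maturation to at most 0.28 FPKM. Cholangiocyte markers moved with the culture state: their sum was 3.85 to 3.96 FPKM in hepatocytes, 2700 to 10977 FPKM over the 4 passaged lines, and 200 to 1408 FPKM over all IL6-iMHs. The part of cells with such markers in the values of the 8 genes was not tested, and in bulk samples fewer cells of a type and less RNA per cell cannot be told apart.

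Cultures at day 7 held both genes present in that table at higher levels than primary hepatocytes. Pck2 stood at 1.01, 0.92 and 0.90 FPKM in primary hepatocytes, at 35, 43.7 and 36.1 FPKM in IL6-iHPCs-D7 and at 33.9, 33.3 and 32.7 FPKM in HCM-Hepa-D7. It was called against primary hepatocytes in both, with log2FC of 4.33 ± 0.08 and 4.14 ± 0.08, where 53.3% and 54.0% of the 276 genes tested were called. Pck2 was thus high in culture with and without IL6: the difference between the media was 0.19 with a 95% interval of 0.02 to 0.36 (adjusted p = 0.051). Pklr stood at 54.9, 56.5 and 56.6 FPKM in primary hepatocytes, 99.8, 105 and 98.5 FPKM in IL6-iHPCs-D7 and 80.0, 79.6 and 79.3 FPKM in HCM-Hepa-D7. Its difference between the media was 0.34 ± 0.05 (adjusted p = 5.91e-05), below 2-fold, where 5.43% of genes were called. Against primary hepatocytes Pklr was not called (0.84 and 0.50), and with quantile normalization both values turned negative. This table holds few of the genes, so the scaling of its samples is uncertain.

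After partial hepatectomy the 8 genes changed less than in culture: Pkm, Hk1 and Hk2 were called higher at day 7, Pklr fell at 24 h and day 3, and Fbp1 and Pck1 were called at no time. Of the 8 genes 1 was called at 6 h (lower), 1 at 24 h (lower), 2 at day 3 (1 higher and 1 lower), 3 at day 7 (all higher) and 0 at day 14, where 16.3%, 7.90%, 5.82%, 8.84% and 2.98% of all genes tested were called. By direction, 11.5% of all genes were lower at 6 h, 4.16% were lower at 24 h, 3.33% were higher and 2.49% lower at day 3, and 7.81% were higher at day 7. All 5 times were compared with the same 3 normal livers. An F test between the 5 times was under the threshold for each of the 8 genes except Fbp1 (adjusted p = 0.065), where 82.8% of all genes were, or 88.8% without replicate 2 of day 3. At day 14, where limma called 0, an unadjusted p under 0.05 and an adjusted p under 0.05 without regard to fold were each reached by 1 of the 8 genes (the latter by 16.9% of all genes), and limma-voom on recovered reads also called 0.

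Pck1 stood at 707, 606 and 678 FPKM in normal liver, 529, 849 and 794 FPKM at 6 h and 962, 918 and 1030 FPKM at 24 h. It reached 1407, 891 and 1506 FPKM at day 14, above normal liver in 3 of 3 samples, with a log2FC of 0.90 ± 0.21 (adjusted p = 0.0079) that fell short of 2-fold and exceeded it (1.13) without replicate 2 of day 14. Pck2 stayed low: it made up 0.37% of Pck1 and Pck2 in normal liver and at most 0.75% ± 0.24, at day 3. It stood at 2.27, 2.28 and 2.89 FPKM in normal liver and 5.01, 11.3 and 6.33 FPKM at day 3, without overlap, and rose by 1.23 ± 0.20 (adjusted p = 6.25e-04). Replicate 2 of day 3 held the highest value, and without it the change was 0.94 and no longer called.

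That same sample stood apart for other genes too. It had the highest Pkm (42.0 against 15.3 and 14.4 FPKM) and the lowest Pklr (9.66 against 20.9 and 37.2 FPKM) of its group. Its sums of macrophage (364 FPKM), stellate cell (219 FPKM), cholangiocyte (147 FPKM) and red cell markers (306 FPKM) were the highest of the 3 livers of day 3, and its sum of hepatocyte markers (35257 FPKM) the lowest. Its sum of endothelial markers was also the lowest (61.7 against 95.1 and 81.1 FPKM). The part of cells with such markers in its values was not tested. Without it 1 of the 8 genes was called at day 3 in place of 2.

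G6pc fell at 6 h but varied widely between livers. It stood at 120, 67.9 and 209 FPKM in normal liver and 12, 59.5 and 69.5 FPKM at 6 h, with overlapping ranges and a log2FC of -1.66 ± 0.56 (adjusted p = 0.022), or -1.38 relative to the median of all genes at that time. Without replicate 3 of normal liver or replicate 1 of 6 h the call was lost, and leaving out 1 sample gave -2.10 to -0.88. At day 14 it stood at 341, 153 and 321 FPKM and was not called against normal liver (1.09 ± 0.56, adjusted p = 0.21). Fbp1 was not called at any time and lay between 620 and 1048 FPKM in all 18 livers.

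Pklr fell at 24 h and at day 3. It stood at 72.7, 57.2 and 114 FPKM in normal liver, 32.6, 20.4 and 25.4 FPKM at 24 h and 20.9, 9.66 and 37.2 FPKM at day 3, and neither time overlapped normal liver. The log2FC was -1.57 ± 0.40 (adjusted p = 0.0080) at 24 h and -1.93 ± 0.40 (adjusted p = 0.0030) at day 3, where it was -1.45 without replicate 2. By day 7 it stood at 59.9, 63.4 and 59.5 FPKM, within the range of normal liver.

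At day 7 Pkm, Hk1 and Hk2 rose together. Pkm stood at 10.7, 10.2 and 11.6 FPKM in normal liver and 70.8, 61 and 60.0 FPKM at day 7, Hk1 at 1.22, 1.03 and 1.05 against 5.0, 3.86 and 3.52 FPKM, and Hk2 at 0.20, 0.24 and 0.40 against 2.03, 2.06 and 1.70 FPKM. None of the 3 genes overlapped between the groups. The log2FC was 2.46 ± 0.30 (adjusted p = 1.59e-05), 1.28 ± 0.12 (adjusted p = 9.26e-07) and 1.20 ± 0.09 (adjusted p = 6.74e-08). Relative to the median of all genes it was 2.33, 1.15 and 1.07, and with quantile normalization Hk2 (0.89) missed the call. Tested directly, day 7 was higher than day 3 by 1.55 ± 0.30 for Pkm (adjusted p = 0.0011), 1.05 ± 0.12 for Hk1 (adjusted p = 6.93e-06) and 1.23 ± 0.09 for Hk2 (adjusted p = 4.27e-08). Pkm also lay above normal liver without overlap at 24 h (15.1 to 27.5 FPKM) and day 3 (14.4 to 42.0 FPKM), with log2FC of 0.74 ± 0.30 (adjusted p = 0.068) and 0.91 ± 0.30 (adjusted p = 0.034) that were not called, the latter 1.01 and called with quantile normalization. By day 14 Pkm was back at 11.2, 10.4 and 10.5 FPKM, and Hk2 at 0.16, 0.19 and 0.16 FPKM. Pck2, the gene that rose with these 3 in culture, was not called at day 7 (0.23 ± 0.20).

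**Figure D4:**
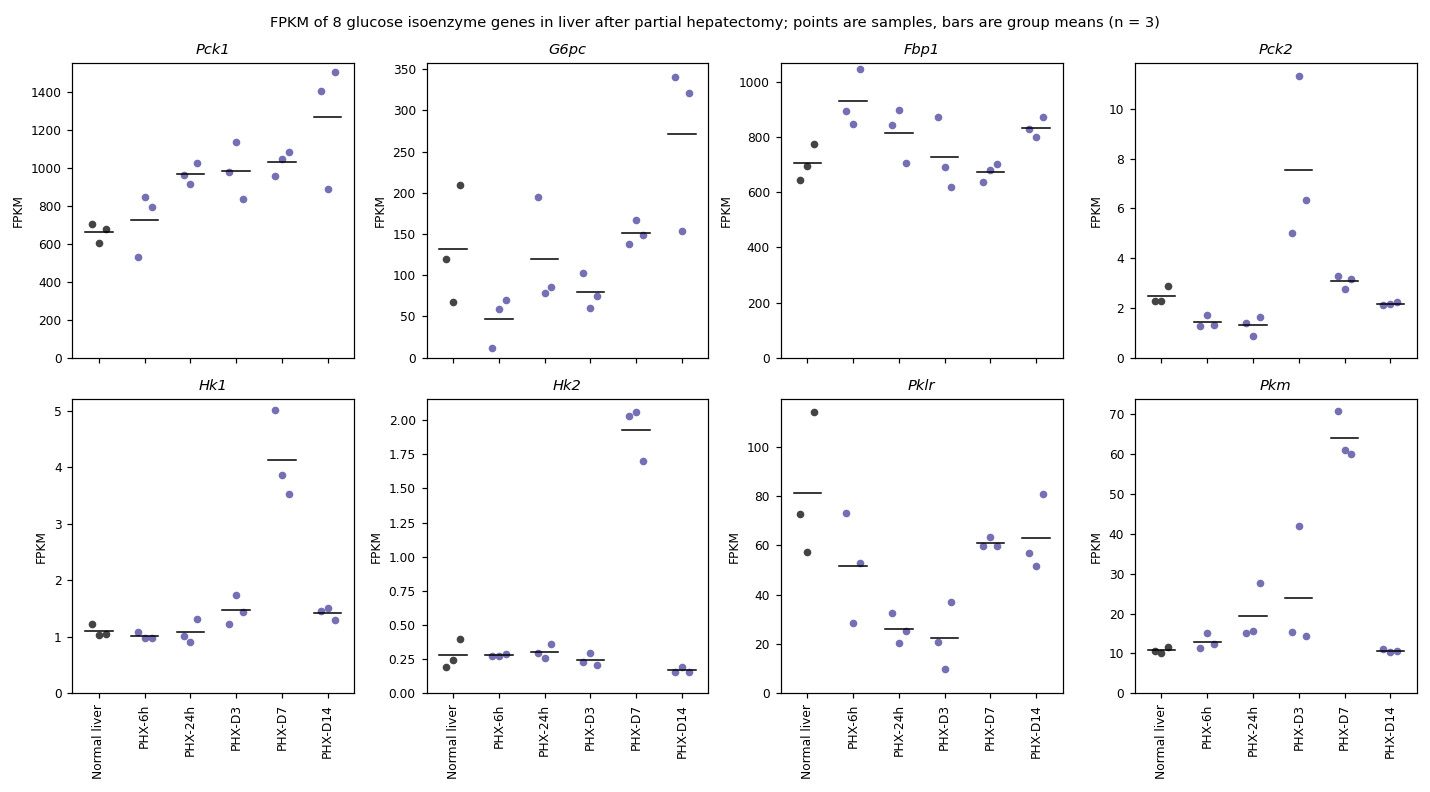
FPKM of the 8 genes (linear axes) in normal liver and 5 times after partial hepatectomy, with 1 point per liver and a bar at the mean of 3. Hk1, Hk2 and Pkm stood highest at day 7, Pklr lowest at 24 h and day 3, and Pck2 highest at day 3, where 1 of 3 livers stood at 11.3 FPKM.

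Markers of other cell types moved with the day 7 livers. Of 8 macrophage markers 8 were higher at day 7, and their sum was 768 to 1111 FPKM against 125 to 212 FPKM in normal liver and 82.8 to 107 FPKM at day 14. Hk3, a hexokinase known from white blood cells, rose by 2.88. Of the 6 lymphocyte or granulocyte markers tested all 6 were higher (75.9 to 128 against 3.64 to 10.2 FPKM in sum), as were 4 of 5 red cell markers (238 to 311 against 87.4 to 150 FPKM), 3 of 8 endothelial markers and 2 of 8 stellate cell markers. Of 5 cholangiocyte and 7 hepatocyte markers tested 0 were called. None of the markers was at 0 at day 7. The part of these cells in the day 7 values of Pkm, Hk1 and Hk2 was not tested. Replicate 2 of day 3, with the highest Pkm outside day 7, also had the highest macrophage sum outside day 7 (364 FPKM). The livers of 24 h, with Pkm of 15.1 to 27.5 FPKM, above normal liver, had macrophage sums of 128 to 137 FPKM. Those sums lay within the range of normal liver.

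**Figure D5:**
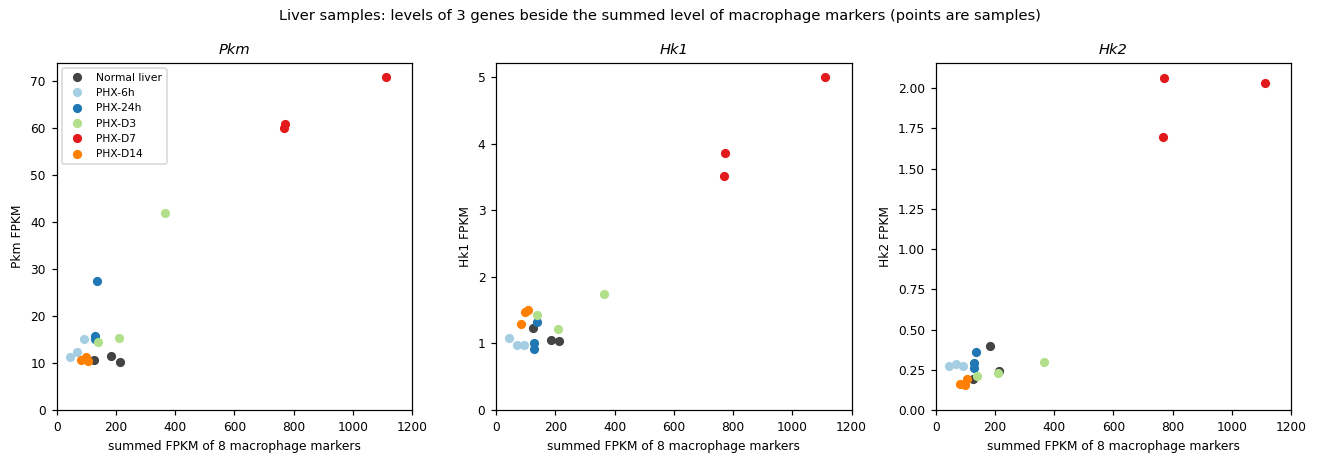
FPKM of Pkm, Hk1 and Hk2 (vertical axes) against the summed FPKM of 8 macrophage markers (horizontal axis) in 18 livers, coloured by time after partial hepatectomy. The 3 livers of day 7 lay apart from the others on both axes, at marker sums of 768 to 1111 FPKM.

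In isoenzyme shares, Pkm made up 12.4% ± 3.0 of Pklr and Pkm in normal liver, 22.3% ± 11 at 6 h, 42.4% ± 10 at 24 h and 51.1% ± 2.7 at day 7, and 14.9% ± 3.0 at day 14. At day 3 it ranged from 28.0% to 81.3%.

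By the correlation of group means of log2(FPKM + 1) over 11 groups of the culture table, the genes closest to each of the 8 were as follows. Cyp2d40 and Magix were closest to Pck1 (r = 0.998 and 0.995), Cyp2j5 and Mbl1 to G6pc (0.973 and 0.969), and Wnt5b and Adh4 to Fbp1 (0.957 and 0.951). Inpp5a and Jdp2 were closest to Pck2 (0.953 and 0.952), Anxa11 and Ehd4 to Hk1 (0.983 and 0.977), P4ha1 and Enah to Hk2 (0.956 and 0.945), and Mtmr11 and Anxa2 to Pkm (0.970 and 0.963). Pklr had the weakest match, with Tmem125 (0.891) and D330045A20Rik (0.878). Over the 6 liver groups the likeness held for few: r was 0.69 for Hk1 and Anxa11 and 0.63 for Pkm and Anxa2, but 0.010 for Pck1 and Cyp2d40, -0.64 for Fbp1 and Adh4, and -0.74 and -0.86 for Pklr with Tmem125 and D330045A20Rik. Among the 8 genes themselves, Fbp1 and Hk1 ran most opposite in culture (r = -0.96), and Hk1 and Hk2 ran most alike in liver (r = 0.95), where the points rest on the day 7 group. The points of each r share their libraries and the same groups, and these values are a description.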

How the data were processed

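Messenger RNA was purified with poly-T and sequenced on Illumina machines with paired ends. The authors deposited tables of expression values per gene, which are FPKM judging by their form (a unit that the headers do not name); their processing notes list TopHat 1.4.1, Cufflinks 1.3.0 and mm10. Levels step in whole reads, from which depth was recovered for 18830 of 18830 culture genes with a value and 17330 of 17331 liver genes.

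Groups came from the sample titles. The culture, liver and day 7 tables were fitted separately with limma 3.58.1 in R 4.3.3 (trend) on log2(FPKM + 1), with all groups of a table in 1 fit, for genes of at least 1 FPKM in 3 samples, with the Benjamini-Hochberg adjustment across every gene tested. In simulated data made from these samples, 200 of 200 changed genes were recovered among 12328 (D3 against hepatocytes) and 195 of 200 among 11114 (6 h against normal liver). Duplicate symbols were averaged, and 1 incomplete row of the day 7 table was left out. Replicates differed beyond sampling noise in all 33 culture pairs and 18 liver pairs.

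The genes, the lists and the tests were chosen with earlier results of these data known. Named genes were the 8, Aldoa, Slc2a1 and Slc2a2, the largest rise and fall past the threshold in each pathway list and comparison, the 2 genes most like each of the 8, and cell type markers. Some genes of that rule are not reported here. The day 7 comparisons, D14 against D3, and the F tests between lines and times were added after the data were seen. Same-numbered samples did not deviate together (median r of -0.016 over 165 culture pairs and -0.055 over 45 liver pairs). The alternatives tried were pseudocount 0.1, filters of 0 and 5 FPKM, quantile normalization, voom on recovered reads, a replicate block, no fold limit, without clone-1, and leaving out each sample.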

Additional observations from a re-analysis of the deposited data

Results flagged for a closer look

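Maturation differed between lines, by an F test and then between the most distant pair of lines, for all 8 genes, as it did for most genes. On the log2 scale mouse-2 (P10) minus clone-1 was 0.83 for Pck1, -1.26 for Hk2 and 2.47 for Pkm. Mouse-1 (P10) minus mouse-1 (P35) was -2.05 for Pck2, -5.59 for G6pc and -2.67 for Pklr. Mouse-1 (P35) minus clone-1 was 4.36 for Fbp1, and mouse-1 (P10) minus mouse-2 (P10) was 1.67 for Hk1.

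The effect at D14 differed from that at D3, both against hepatocytes, by 2.21 for G6pc, -1.88 for Fbp1, 1.07 for Hk1 and 1.10 for Pklr.

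Effects at different times after partial hepatectomy, all against the same normal livers, differed for 6 of the genes. Day 3 minus 24 h was 1.83 for Pck2, day 14 minus 6 h was 2.75 for G6pc, and day 7 minus 6 h was 1.34 for Hk1. Day 14 minus day 7 was -1.32 for Hk2 and -2.47 for Pkm, and day 14 minus day 3 was 1.60 for Pklr. The pairs of lines and times were the most distant ones, so these sizes are the upper end of the differences.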

How the results depend on the processing

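Of 1192 alternative values of the 8 genes in culture 1176 kept direction and call, as did 437 of 470 in liver. The replicate block changed no call and no count of the 8 genes (8 at D3 and 0 at day 14 after hepatectomy, as without it), and the numbers do not pair the samples. For the number of the 8 genes called, dropping the fold limit gave 3 at 6 h, 2 at 24 h and 1 at day 14, voom gave 2 at 24 h (Pck2 at -1.01), and a filter of 5 FPKM, which leaves fewer genes tested, gave 1 at day 7. Leaving out 1 sample gave 0 to 1 at 6 h, 1 to 3 at day 3 and 0 to 1 at day 14.

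Quantile normalization changed all-gene calls from 6641 higher and 1494 lower to 3179 and 2749 at D3, from 6163 and 1595 to 3117 and 2785 at D14, from 5931 and 1392 to 2797 and 2335 in passaged cells, from 823 and 2636 to 1185 and 1096 at maturation, and from 3060 and 960 to 1576 and 1340 for IL6-iMHs against hepatocytes. By line they went from 1182 and 1900 to 1381 and 1400 in mouse-1 (P10), from 1386 and 3529 to 1925 and 2044 in mouse-2 (P10), from 1255 and 4330 to 1904 and 2064 in mouse-1 (P35), and from 722 and 2185 to 1104 and 1064 in clone-1. In liver they went from 531 and 1279 to 758 and 674 at 6 h, from 868 and 114 to 580 and 221 at day 7, and from 109 and 222 to 128 and 141 at day 14.

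With it, at maturation Hk1 (-0.85) and Hk2 (-0.56) lost the call, and by line Hk1 turned to 0.19 in mouse-1 (P10) and Pkm to -0.77 in mouse-2 (P10), while Hk2 (-0.98) lost and G6pc (-1.02) gained the call in mouse-1 (P10), and Pklr (-1.22) gained it in mouse-2 (P10). G6pc3 (-0.055) and Ldhb (-0.075) turned at D3, as did Pklr at day 7 of culture (-0.56 in HCM, -0.35 with IL6). In liver Hk1 (0.22) and Pck1 (-0.035) turned at 6 h, Aldoa (0.17) at day 3, Pck2 (-0.042) at day 7, and Pck2 (0.018) and Pkm (0.061) at day 14, while Pkm at day 3 (1.01) gained and Hk2 at day 7 (0.89) lost the call. Without clone-1 Pkm (-0.67) lost the call at maturation, and Aldoa turned to 0.31 there. The causes were not tested.

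Leaving out 1 liver gave ranges that crossed 0 or the threshold. At 6 h they were -2.10 to -0.88 for G6pc, -0.045 to 0.069 for Hk2 and -0.032 to 0.31 for Pck1. At 24 h they were -0.54 to 0.27 for G6pc, -0.097 to 0.041 for Hk1 and -0.016 to 0.098 for Hk2. At day 3 they were -0.10 to 0.14 for Fbp1, -0.082 to 0.032 for Hk2, 0.94 to 1.45 for Pck2, 0.43 to 1.17 for Pkm and -0.54 to 0.16 for Aldoa. At day 7 they were -0.12 to 0.0087 for Fbp1 and -0.071 to 0.73 for G6pc. At day 14 they were 0.76 to 1.13 for Pck1 and -0.048 to 0.035 for Pkm. In culture Pck2 in mouse-2 (P10) ran from -0.076 to 0.044.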

Other observations

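Other genes of glucose handling were read by the same limma test, by which 53.9% of all genes were called higher and 12.1% lower at D3. Of 7 genes of glycogen metabolism 3 were called higher and 2 lower at D3, 5 of 7 beside 66.0% of all genes, among them Pygb, the brain form of glycogen phosphorylase (3.36), and Gys2, the liver glycogen synthase (-4.17). Gys2 rose by 4.28 at maturation, whereas Pygl, the liver phosphorylase, was still lower in IL6-iMHs than in hepatocytes (-3.66). Of 9 genes for enzymes that switch between glucose use and storage 4 were higher and 4 lower at D3, against the same shares. Pdk4, a kinase that inhibits pyruvate dehydrogenase, rose by 6.02 at D3 and by 6.52 in liver at 6 h after hepatectomy.

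Of 14 regulators of glucose genes 10 were higher and 2 lower at D3, beside the 53.9% and 12.1% of all genes. Hif1a, the oxygen-regulated transcription factor, rose by 6.83 at D3 and fell by 3.13 at maturation. Gcgr, the glucagon receptor, was lower than in hepatocytes both before (-6.06) and after maturation (-4.25). In liver Myc, a growth-associated transcription factor, was higher at day 7 (2.90) and day 14 (3.36).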
